A study of Mus musculus with 14 samples.

Results

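A group of 49 genes that encode the DNA replication machinery was followed in mouse embryo fibroblasts with and without p53. The rule that picks them uses gene names, and the list was drawn up with earlier results of these data known. All 49 were found among the 20207 genes listed for each library. Of these, 47 matched by their current symbol, and Orc1 and Orc6 matched by the older symbols Orc1l and Orc6l, which RefSeq gives as synonyms. The RNA libraries were 2 from p53-/- cells given doxorubicin, 2 from untreated p53-/- cells, 3 from wild-type cells given doxorubicin and 3 from untreated wild-type cells. All cells were primary mouse embryo fibroblasts (MEFs) of the 129/Sv strain, and treatment was 0.2 µg/ml doxorubicin for 6 h. Doxorubicin is a topoisomerase II poison that breaks DNA. The study asked which genes respond to DNA damage in each genotype and which differ between the untreated genotypes. The labels number the replicates without naming the embryo, litter or p53 allele, so the p-values cover only the spread between these libraries. Reads of 4 Y-linked genes were 166, 0 and 2 in untreated wild-type libraries 1, 2 and 3. In treated p53-/- libraries 1 and 2 they were 136 and 15. Libraries that differ so are not repeats of 1 cell sample, while the spread between those with like counts may be technical.

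DNA replication begins when the origin recognition complex, Cdc6 and Cdt1 load the ring-shaped MCM helicase onto DNA before S phase. In S phase the GINS complex and Mcm10 help to activate the helicase, polymerase alpha with primase starts each strand, and polymerases delta and epsilon extend it on the sliding clamp PCNA. Many of these genes are transcribed in late G1 by E2F factors, which the retinoblastoma proteins hold in check. p53 acts on this system mainly through its target Cdkn1a, which encodes the cyclin-dependent kinase inhibitor p21. MEFs divide in culture, so replication genes are expressed without treatment.

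Promoter sequences describe the members apart from their function. RefSeq promoter windows (build GRCm38.p6, around each gene's start) were at hand for 39 of the 49 members. The letters TTTGGCG, as in E2F sites, stood on either strand in 11 of these 39 windows (28.2%), against 1.59% of all 27025 promoter windows. A further E2F-like string, TTCCCGC, stood in 18 of 39 (46.2%), against 4.66% of all windows. Read on opposite strands the strings can share letters. At least 1 of them was held by 25 members (64.1%), against 6.07% of all windows. The CCAAT letters stood in 64.1% of member windows and 37.9% of all windows. The letters TTTGAA, as in the cell-cycle element of many mitotic genes, stood in 10.3% of member windows and 18.1% of all windows. All windows were counted without matching their base composition to that of the member windows. A match of letters is a description of the window and does not show that a factor binds there.

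The 6 windows below belong to the named members with the smallest p-values in any comparison among those with a window, 5′ to 3′ on the gene's strand, with both E2F-like strings on either strand in capitals. That of Pola1, the catalytic subunit of polymerase alpha, is chrX:93632106-93632405 on the minus strand, with matches that begin 169, 137 and 121 bases before the start. Those of Rrm1, the large subunit of ribonucleotide reductase (chr7:102441445-102441744, plus strand), and Hells, a chromatin remodeller (chr19:38930740-38931039, plus strand), hold 1 match each, 67 and 61 bases before the start. For Pold1, the catalytic subunit of polymerase delta (chr7:44548766-44549065, minus strand), the match lies 39 bases after the start. In the window of Rpa2, a subunit of the single-strand DNA binding protein RPA (chr4:132768110-132768409, plus strand), it lies 37 bases before. Rrm2, the small subunit of ribonucleotide reductase (chr12:24708004-24708303, plus strand), holds 0 matches.
Pola1: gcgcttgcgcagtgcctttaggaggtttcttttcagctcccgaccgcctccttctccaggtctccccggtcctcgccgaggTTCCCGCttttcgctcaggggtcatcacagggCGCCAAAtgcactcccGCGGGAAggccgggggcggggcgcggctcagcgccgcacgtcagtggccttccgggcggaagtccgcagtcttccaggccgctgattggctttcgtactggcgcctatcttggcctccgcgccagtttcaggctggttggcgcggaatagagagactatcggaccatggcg
Rrm1: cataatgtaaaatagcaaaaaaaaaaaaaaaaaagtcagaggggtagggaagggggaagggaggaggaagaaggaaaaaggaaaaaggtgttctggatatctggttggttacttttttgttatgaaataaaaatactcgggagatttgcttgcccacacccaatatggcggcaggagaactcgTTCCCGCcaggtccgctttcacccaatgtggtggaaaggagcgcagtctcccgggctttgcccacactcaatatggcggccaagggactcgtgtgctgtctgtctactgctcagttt
Hells: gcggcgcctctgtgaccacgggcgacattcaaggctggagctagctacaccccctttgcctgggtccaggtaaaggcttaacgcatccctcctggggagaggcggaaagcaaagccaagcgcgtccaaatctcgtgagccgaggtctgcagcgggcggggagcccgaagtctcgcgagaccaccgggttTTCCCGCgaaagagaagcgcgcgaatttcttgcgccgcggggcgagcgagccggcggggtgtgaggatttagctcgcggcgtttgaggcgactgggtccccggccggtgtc
Pold1: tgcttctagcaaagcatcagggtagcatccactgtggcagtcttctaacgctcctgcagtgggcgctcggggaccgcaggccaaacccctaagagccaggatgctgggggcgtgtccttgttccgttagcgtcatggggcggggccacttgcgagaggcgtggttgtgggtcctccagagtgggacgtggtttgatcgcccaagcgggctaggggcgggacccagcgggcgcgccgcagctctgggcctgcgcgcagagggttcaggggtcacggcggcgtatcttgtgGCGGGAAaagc
Rpa2: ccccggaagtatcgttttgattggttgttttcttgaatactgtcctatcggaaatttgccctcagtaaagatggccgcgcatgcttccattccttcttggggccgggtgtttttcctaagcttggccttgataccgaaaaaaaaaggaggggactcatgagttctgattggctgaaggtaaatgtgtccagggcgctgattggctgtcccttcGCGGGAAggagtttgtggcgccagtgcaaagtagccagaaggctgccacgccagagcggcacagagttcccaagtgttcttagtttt
Rrm2: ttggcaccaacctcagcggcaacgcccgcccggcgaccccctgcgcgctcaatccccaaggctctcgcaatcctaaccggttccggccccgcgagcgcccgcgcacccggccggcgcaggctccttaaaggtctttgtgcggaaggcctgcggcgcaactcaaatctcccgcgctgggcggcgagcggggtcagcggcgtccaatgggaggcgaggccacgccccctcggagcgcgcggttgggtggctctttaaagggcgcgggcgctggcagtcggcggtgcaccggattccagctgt

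Levels below are given in CPM, a gene's reads relative to the scaled depth of its library, and changes are differences of log2(CPM + 0.5) with their standard error (SE). A gene is called at an adjusted p under 0.05 in limma, after Benjamini-Hochberg adjustment over all 11177 tested genes. Of the 49 members, 48 passed the filter of 1 CPM in at least 2 libraries. Dscc1, a subunit of an alternative clamp loader, did not, with 1 to 17 reads a library. The p53-/- libraries held 18099506 to 25970157 reads and the wild-type libraries 9768163 to 11770448, so depth and genotype cannot be told apart. Cdkn1a stood at 29.9 to 54.6 CPM in p53-/- libraries and at 554 to 5051 CPM in wild-type libraries. Trp53, the gene of p53, had reads in both genotypes, and reads of its 3′ end do not test a deletion elsewhere in the gene. Marker genes of fibroblasts were expressed in all 10 libraries, with Col1a1 at 859 to 2502 CPM. The summed level of 16 macrophage markers was 91.9 to 131 CPM in p53-/- libraries, 46.5, 226 and 243 CPM in treated wild-type libraries 1, 2 and 3, and 102, 516 and 535 CPM in untreated wild-type libraries 1, 2 and 3. Among these markers 0 to 4 were at 0 reads in a library, and their levels spread widely. Ptprc, the common leukocyte antigen, was at most at 0.362 CPM. C1qb stood at 144.8 and 158.5 CPM and Csf1r at 83.7 and 105.8 CPM in untreated wild-type libraries 2 and 3. The part of these markers in the results below was not tested.

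Among wild-type cells the libraries numbered 3 stood apart for many replication genes. Both libraries numbered 3 lay above the 4 other wild-type libraries for 8 of 48 members, against 9.18% of all tested genes, and below them for 7 members, against 8.05%. The 8 were Mcm2, Mcm3, Mcm5, Cdc6, Cdt1, Pole, Chaf1a and Timeless. Mcm2, a helicase subunit, had 145 and 139 CPM in treated and untreated libraries 3, and 22.2 to 48.2 CPM in the other wild-type libraries. Cdc6, the helicase loading factor, had 22.4 and 26.6 CPM in libraries 3 and 1.57 to 8.97 CPM in the others. Pole, the catalytic subunit of polymerase epsilon, reached 38.1 CPM in treated library 3 alone, with 1.36 to 2.67 CPM in the 5 other wild-type libraries. The 7 below were Mcm4, Gins3, Prim1, Prim2, Rrm1, Dnmt1 and Clspn. The helicase subunits Mcm2, Mcm3 and Mcm5 therefore ran opposite to Mcm4 within wild type. The results that follow were also computed without both wild-type libraries numbered 3, a choice made after seeing these values.

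**Figure D1:**
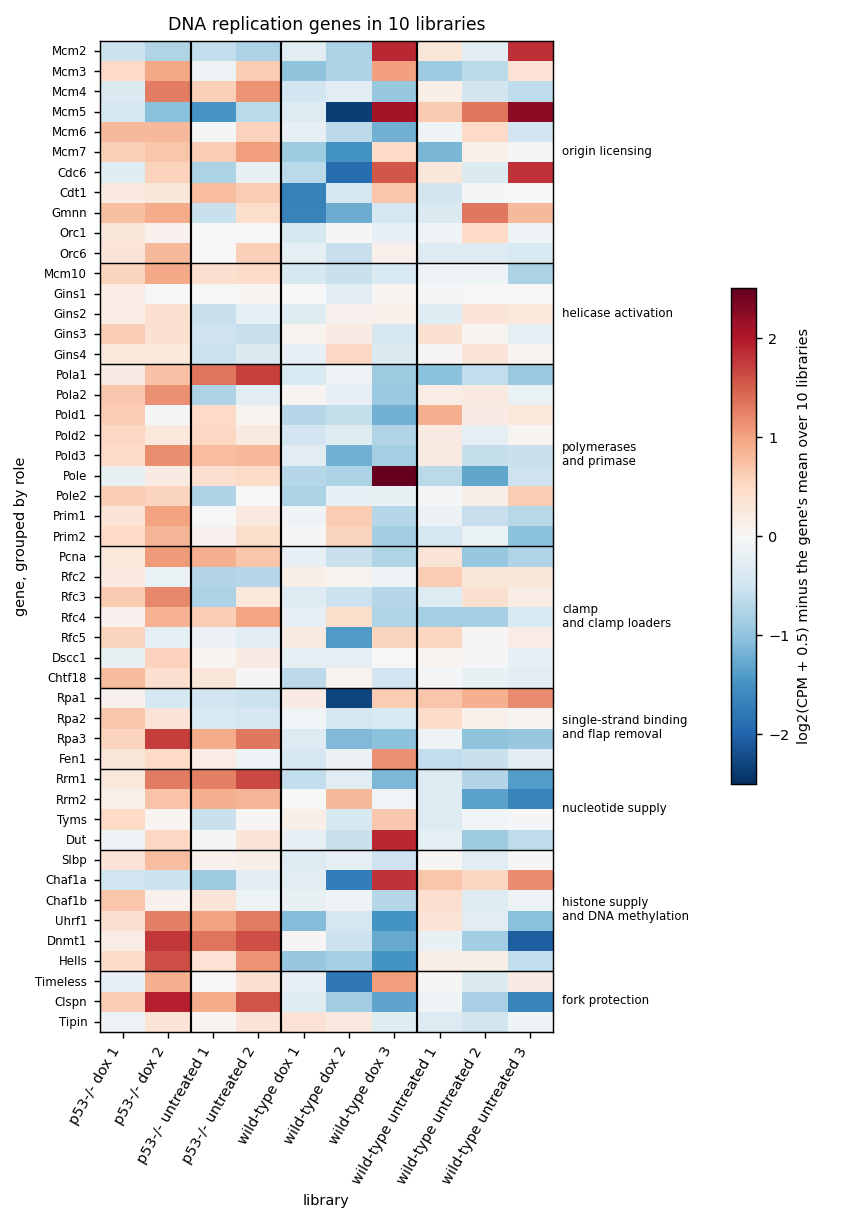
Log2(CPM + 0.5) of each of the 49 replication genes in each of the 10 libraries (columns, p53-/- left of wild type), as the difference from the gene's mean over all libraries, with genes grouped by role (rows). Red is above the gene's mean and blue below, and the wild-type libraries numbered 3 show both dark red cells (Mcm2, Mcm5 and Cdc6 in both, Pole in the treated one) and blue cells (Dnmt1, Clspn, Rrm1).

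After doxorubicin, replication genes were higher in p53-/- than in wild-type cells for a larger share of members than of all genes. Of 48 tested members 15 were called higher (31.2%) and 0 lower, against 5.68% and 6.41% of all tested genes. The median log2 fold was 0.78 for the members and 0.07 for all tested genes, and 42 of the 48 folds were above 0. Both p53-/- libraries lay above all 3 wild-type libraries for 26 members and below them for 0, against 23.5% and 18.5% of all genes. In bulk RNA, fewer cells in S phase and less RNA of these genes in each cell cannot be told apart. The 15 calls were spread over 7 of the 8 roles, and genes of nucleotide supply had 0 of 4. The fit without treated p53-/- library 2 had 0 calls, and the fits without treated p53-/- library 1, untreated p53-/- library 1, and treated wild-type libraries 1 and 3 had 8, 7, 9 and 5. The number of calls was 8 without both wild-type libraries numbered 3 and 3 when only the treated libraries were fitted. The shares of all genes called in these fits are not given here, so the counts have no background beside them. Reads of 4 Y-linked genes came to 136 in treated p53-/- library 1 and 15 in library 2. Their part in these calls was not tested.

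Of 11 origin licensing genes, 2 were called higher in treated p53-/- cells, 0 lower and 9 not called. Gmnn encodes geminin, which blocks Cdt1 so that origins are licensed once a cycle. Gmnn stood at 14.0 and 15.7 CPM in treated p53-/- libraries, against 2.20, 3.13 and 5.76 CPM in treated wild-type libraries. The groups did not overlap, and the log2 fold was 1.96 (SE 0.53, adjusted p = 0.0398). Mcm6, a subunit of the MCM helicase, had 26.0 and 26.2 CPM in treated p53-/- libraries, against 12.6, 9.13 and 6.07 CPM in treated wild-type libraries. Its log2 fold was 1.50 (SE 0.38, adjusted p = 0.0294), again without overlap. The other helicase subunits did not pass. Mcm3, Mcm4 and Mcm7 had log2 folds of 0.98, 1.03 and 1.28, while Mcm2 and Mcm5 had -0.90 and -0.53. Mcm5 had 33.0 and 21.4 CPM in treated p53-/- libraries, against 35.4, 8.30 and 190.4 CPM in treated wild-type libraries. The wild-type values thus span both p53-/- ones. Cdt1, the partner of Cdc6 in helicase loading, had 2.84 and 2.90 CPM in treated p53-/- libraries, against 0.366, 1.57 and 4.01 CPM in treated wild-type libraries, which overlap. Orc1 and Orc6, subunits of the origin recognition complex, had log2 folds of 0.42 and 0.81, not called.

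Helicase activation genes gave 1 call among 5 members. Mcm10, a scaffold that helps the helicase to start unwinding, had 7.49 and 10.0 CPM in treated p53-/- libraries, against 3.66, 3.23 and 3.70 CPM in treated wild-type libraries. Its log2 fold was 1.19 (SE 0.31, adjusted p = 0.0338). The 4 subunits of GINS, which joins the MCM ring in the working helicase, had log2 folds of 0.17 to 0.54, and 0 were called. Gins1 was nearly level, with 2.34 and 1.98 CPM in treated p53-/- libraries, against 2.01, 1.57 and 2.06 CPM in treated wild-type libraries. Gins3 had 25.8 and 22.1 CPM in treated p53-/- libraries, against 17.95, 19.5 and 12.5 CPM in treated wild-type libraries, without overlap.

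The polymerases gave 4 calls among 9 members, and 3 of them were subunits of polymerase delta, which copies the lagging strand. Pold1 had 179 and 110.3 CPM in treated p53-/- libraries, against 69.3, 75.0 and 49.2 CPM in treated wild-type libraries, and its log2 fold was 1.14 (SE 0.31, adjusted p = 0.0380). Pold2, an accessory subunit, had 270.5 and 225.5 CPM in treated p53-/- libraries, against 134, 152 and 112 CPM in treated wild-type libraries (log2 fold 0.90, SE 0.22, adjusted p = 0.0242). Neither gene's values overlapped between the groups. In the genome, Pold2 overlaps the coding gene Aebp1, and their reads cannot be told apart. Pold3, the accessory subunit that also acts in break-induced replication, had 8.22 and 13.6 CPM in treated p53-/- libraries, against 4.67, 2.21 and 2.98 CPM in treated wild-type libraries (log2 fold 1.60, SE 0.39, adjusted p = 0.0259). The fourth call was Pola2, the regulatory subunit of polymerase alpha. It had 28.5 and 40.1 CPM in treated p53-/- libraries, against 18.6, 15.4 and 9.15 CPM in treated wild-type libraries (log2 fold 1.26, SE 0.34, adjusted p = 0.0371). The catalytic partner Pola1 was not called (log2 fold 0.93, SE 0.33, adjusted p = 0.0987). The primase genes Prim1 and Prim2 had log2 folds of 0.71 and 0.76, and Pole had -0.51, all not called.

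Clamp loaders and the RPA complex each gave 2 calls. Rfc3, a subunit of the complex that opens PCNA around DNA, had 35.5 and 51.8 CPM in treated p53-/- libraries, against 17.8, 15.1 and 13.4 CPM in treated wild-type libraries (log2 fold 1.46, SE 0.36, adjusted p = 0.0259). Chtf18, the large subunit of an alternative clamp loader that acts in sister chromatid cohesion, had 152 and 117 CPM in treated p53-/- libraries, against 54.8, 92.1 and 62.0 CPM in treated wild-type libraries (log2 fold 0.97, SE 0.25, adjusted p = 0.0340). Chtf18 overlaps the coding gene Gng13 in the genome, and their reads cannot be told apart. Other subunits of the main loader spread widely, with log2 folds of -0.0015 for Rfc2 and 0.66 for Rfc4, not called. Pcna itself had 8.18 and 14.6 CPM in treated p53-/- libraries, against 5.77, 4.42 and 3.81 CPM in treated wild-type libraries. These did not overlap, and the log2 fold was 1.16 (SE 0.42, adjusted p = 0.101), above the threshold. Rpa3 had 3.11 and 7.64 CPM in treated p53-/- libraries, against 1.47, 0.645 and 0.720 CPM in treated wild-type libraries (log2 fold 1.95, SE 0.44, adjusted p = 0.0178). Rpa2 had 189 and 148 CPM in treated p53-/- libraries, against 112, 86.9 and 90.3 CPM in treated wild-type libraries (log2 fold 0.80, SE 0.21, adjusted p = 0.0366). Rpa1, the large DNA-binding subunit, did not follow its partners, since treated wild-type libraries at 124, 21.2 and 166 CPM spanned the p53-/- values of 115 and 78.6 CPM. Fen1, the nuclease that trims Okazaki fragments, had 8.64 and 10.1 CPM in treated p53-/- libraries, against 5.04, 6.18 and 15.8 CPM in treated wild-type libraries, a log2 fold of 0.22 (adjusted p = 0.781).

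Genes that supply histones or copy DNA methylation gave 3 calls among 6. Hells had 5.42 and 12.7 CPM in treated p53-/- libraries, against 1.74, 1.94 and 1.03 CPM in treated wild-type libraries, the largest log2 fold of the 48 at 2.13 (SE 0.45, adjusted p = 0.0124). Uhrf1, which brings the methyltransferase Dnmt1 to newly copied DNA, had 6.38 and 11.7 CPM in treated p53-/- libraries, against 1.92, 3.32 and 1.34 CPM in treated wild-type libraries (log2 fold 1.84, SE 0.47, adjusted p = 0.0306). Both were higher in each p53-/- library than in each wild-type one. Slbp, which binds the stem-loop of histone mRNAs, had 13.1 and 18.1 CPM in treated p53-/- libraries, against 8.24, 8.76 and 7.10 CPM in treated wild-type libraries (log2 fold 0.91, SE 0.26, adjusted p = 0.0487). Dnmt1 itself had 20.0 and 60.7 CPM in treated p53-/- libraries, against 17.8, 11.9 and 6.99 CPM in treated wild-type libraries, a log2 fold of 1.57 that was not called (adjusted p = 0.122). Of the 3 fork protection genes, Clspn was called. It encodes claspin, the adaptor that lets the kinase ATR activate Chk1, and had 16.7 and 42.7 CPM in treated p53-/- libraries, against 8.70, 5.72 and 4.01 CPM in treated wild-type libraries (log2 fold 2.10, SE 0.53, adjusted p = 0.0300). Among the 20 alternatives tried for each gene, Hells lost its call in 2, Rpa3 in 3 and Slbp in 17. The calls of Pold1 and Rpa2 were lost in 13.

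**Figure D2:**
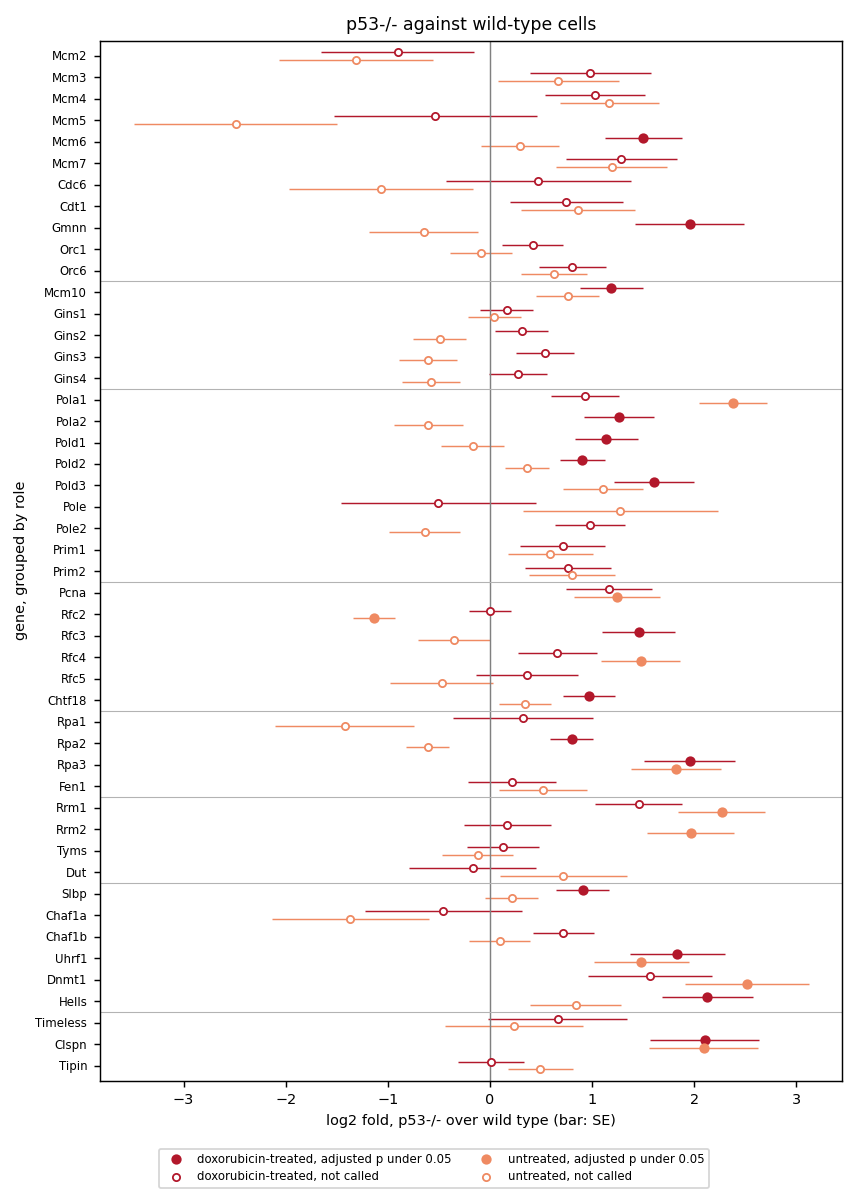
Log2 fold of p53-/- over wild-type cells (horizontal axis) for the 48 tested replication genes (rows, grouped by role), after doxorubicin (dark red) and without treatment (orange). Bars are 1 SE and filled points are called at an adjusted p under 0.05, with 15 filled dark points, all right of 0, and 10 filled orange points, of which Rfc2 lies left of 0.

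Without treatment, fewer replication genes stood out against the broad difference between the genotypes. Of 48 members 9 were called higher in p53-/- cells (18.8%) and 1 lower (2.08%), against 20.2% and 12.7% of all tested genes. The share of higher calls was thus near the background. With library size alone the higher calls were 15, and the share of all genes called under that scaling is not given here. The median log2 fold was 0.35 for the members and 0.09 for all tested genes, and the p53-/- libraries lay above all wild-type ones for 26 members and below for 10, against 35.9% and 28.5% of all genes. Untreated folds ran with level over all genes, with a median of 0.62 below an average log2 CPM of 1 and of -0.42 at 7 and above. Scaling by library size alone moved the median of all genes by 0.35 without treatment and by 0.22 after doxorubicin, and median-of-ratios scaling moved it by -0.10 without treatment. Relative to the median of all genes, the members' median was 0.25 to 0.315 higher without treatment under these scalings and the main one. After doxorubicin it was 0.70 to 0.71 higher. On the variance-stabilised scale of the deposited scores, which is not log2 CPM, it was 0.33 higher without treatment and 0.91 higher after doxorubicin.

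Among nucleotide supply genes 2 of 4 were called higher without treatment, and among genes of histone supply and DNA methylation 2 of 6. Of the 5 helicase activation genes 0 were called, and of all tested genes 20.2% were called higher. Rrm1 and Rrm2 encode the subunits of ribonucleotide reductase, which makes deoxyribonucleotides. Rrm1 had 22.9 and 30.3 CPM in untreated p53-/- libraries, against 7.32, 5.43 and 3.22 CPM in untreated wild-type libraries (log2 fold 2.27, SE 0.43, adjusted p = 0.00663). Rrm2 had 20.4 and 19.7 CPM in untreated p53-/- libraries, against 8.50, 3.98 and 3.11 CPM in untreated wild-type libraries (log2 fold 1.97, SE 0.43, adjusted p = 0.01). Both genes were higher in each p53-/- library than in any wild-type one. Thymidylate synthase, Tyms, which makes the thymidine nucleotide, had 8.70 and 13.2 CPM in untreated p53-/- libraries, against 10.3, 12.3 and 12.7 CPM in untreated wild-type libraries, a log2 fold of -0.12 (adjusted p = 0.806). Dnmt1, the maintenance DNA methyltransferase, had 44.6 and 54.4 CPM in untreated p53-/- libraries, against 15.2, 9.33 and 3.78 CPM in untreated wild-type libraries (log2 fold 2.51, SE 0.61, adjusted p = 0.0140). Its partner Uhrf1 had 9.82 and 12.2 CPM in untreated p53-/- libraries, against 5.90, 3.80 and 2.00 CPM in untreated wild-type libraries (log2 fold 1.48, SE 0.47, adjusted p = 0.0364). Clspn had 20.8 and 33.0 CPM in untreated p53-/- libraries, against 10.0, 5.98 and 3.11 CPM in untreated wild-type libraries (log2 fold 2.09, SE 0.53, adjusted p = 0.0169). For Rrm1, Rrm2, Dnmt1, Uhrf1 and Clspn alike the lowest untreated wild-type value was that of library 3.

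At the fork itself, the untreated calls held single subunits of several complexes. Pola1 had the smallest adjusted p of the members, with 5.66 and 7.48 CPM in untreated p53-/- libraries, against 0.708, 1.09 and 0.778 CPM in untreated wild-type libraries (log2 fold 2.38, SE 0.33, adjusted p = 0.00201). The wild-type values rest on 6, 12 and 7 reads, and the p53-/- values on 121 and 167. Pola1 lies on the X chromosome, and reads of 4 Y-linked genes came to 207 and 216 in untreated p53-/- libraries, against 166, 0 and 2 in untreated wild-type libraries 1, 2 and 3. Their part in the Pola1 result was not tested. Rpa3 had 4.21 and 5.69 CPM in untreated p53-/- libraries, against 1.77, 0.724 and 0.778 CPM in untreated wild-type libraries (log2 fold 1.82, SE 0.44, adjusted p = 0.0142). Rfc4, another clamp loader subunit, had 39 and 56 reads in untreated p53-/- libraries, against 3, 4 and 6 reads in untreated wild-type libraries (log2 fold 1.48, SE 0.39, adjusted p = 0.0186). Pcna had 12.8 and 11.1 CPM in untreated p53-/- libraries, against 8.50, 3.26 and 3.78 CPM in untreated wild-type libraries (log2 fold 1.24, SE 0.42, adjusted p = 0.0452). The single lower call was Rfc2, a further subunit of the same loader as Rfc4, with 96.9 and 98.6 CPM in untreated p53-/- libraries, against 251, 199 and 200.4 CPM in untreated wild-type libraries (log2 fold -1.14, SE 0.20, adjusted p = 0.00531). The loader subunits Rfc2 and Rfc4 thus had folds of opposite sign under each scaling tried. Their average log2 CPM was 7.35 and 0.61. Over all genes the median untreated fold was -0.42 at 7 and above and 0.62 below 1, the same signs. A scaling factor for each library does not remove such a trend with level, and its part in this pair was not tested. Rfc4 also overlaps the coding gene Eif4a2, and their reads cannot be told apart.

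Licensing genes had 0 calls among 11 without treatment. Mcm5 had 15.7 and 27.6 CPM in untreated p53-/- libraries, against 70.6, 114 and 211 CPM in untreated wild-type libraries, and the lowest log2 fold of the members, -2.49 (SE 0.997, adjusted p = 0.0776). Mcm2 had 25.4 and 22.6 CPM in untreated p53-/- libraries, against 48.2, 32.5 and 139 CPM in untreated wild-type libraries, a log2 fold of -1.31 (adjusted p = 0.197). Neither gene overlapped between the genotypes, and the highest value of each was in wild-type library 3. Rpa1 likewise had 76.7 and 73.6 CPM in untreated p53-/- libraries, against 172, 197 and 243 CPM in untreated wild-type libraries (log2 fold -1.42, adjusted p = 0.131). Each untreated p53-/- library decided most calls. Without library 1 the higher calls were 2, Pola1 and Rrm1, without library 2 there was 1, Pola1, and the lower call was lost in both fits. Lower calls numbered 4 without treated wild-type library 2 and 3 without treated wild-type library 3, which enter through the shared estimate of the spread. No share of all genes is given here for the fits with libraries left out.

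The calls in the treated and untreated comparisons overlapped in 3 genes, Clspn, Rpa3 and Uhrf1, which are 3 of the 15 treated and 3 of the 9 untreated higher calls. The comparisons share no library, but same-numbered treated and untreated wild-type libraries deviate together and both use 1 estimate of the spread, so they are not independent. The other 6 genes, Dnmt1, Pcna, Pola1, Rfc4, Rrm1 and Rrm2, were called without treatment alone, and 12 after doxorubicin alone. A call in 1 comparison and not in the other does not show that the genotypes' difference changed with treatment, and that difference of responses is tested below.

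**Figure D3:**
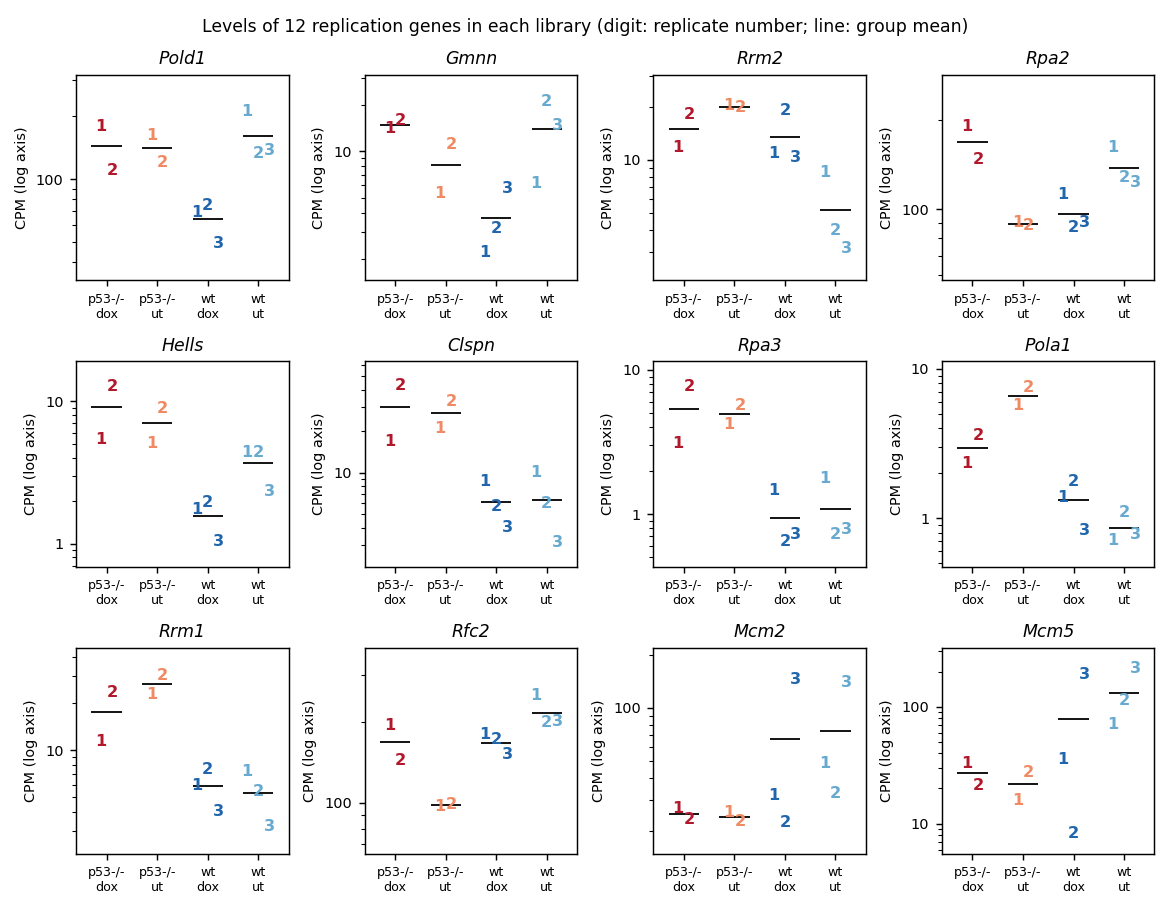
CPM (log axis) of 12 replication genes in each library, with the replicate number as the plotting symbol and the group mean as a line, for p53-/- doxorubicin, p53-/- untreated, wild-type doxorubicin and wild-type untreated cells from left to right. Rpa2 and Pold1 show lower treated than untreated wild-type values, Rpa3, Clspn, Pola1 and Rrm1 are higher in all p53-/- libraries than in all wild-type libraries, and Mcm2 and Mcm5 are highest in the wild-type libraries numbered 3.

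In p53-/- cells doxorubicin gave 0 called members, by limma's trend method and also with voom weights, and the trend method called 0% of all 11177 genes higher and 0% lower. At an unadjusted p under 0.05 there were 9 members and 1262 genes. The median log2 fold was 0.29 for the members and -0.04 for all tested genes, and 36 of 48 folds were above 0. Both treated libraries lay above both untreated ones for 19 members and below for 4, against 26.9% and 25.8% of all genes. Pola2 had 28.5 and 40.1 CPM in treated p53-/- libraries, against 10.2 and 14.8 CPM in untreated p53-/- libraries, and the largest log2 fold of the members, 1.43 (SE 0.37, adjusted p = 0.352). Rfc3 had 35.5 and 51.8 CPM in treated p53-/- libraries, against 12.7 and 26.8 CPM in untreated p53-/- libraries (log2 fold 1.19, SE 0.39). The GINS genes had log2 folds of 1.04 for Gins3, 0.70 for Gins4, 0.69 for Gins2 and 0.07 for Gins1, none called. Pola1 had 2.31 and 3.58 CPM in treated p53-/- libraries, against 5.66 and 7.48 CPM in untreated p53-/- libraries, and the lowest log2 fold, -1.05 (SE 0.36, adjusted p = 0.368). The 2 named subunits of polymerase alpha therefore had folds of opposite sign, neither called. Pold1 had a log2 fold of 0.01, which was -0.09 with library size alone.

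In wild-type cells doxorubicin gave 1 member called higher and 2 lower of 48, against 7.86% and 4.61% of all tested genes. The median log2 fold was -0.27 for the members and 0.04 for all genes, and 15 of 48 folds were above 0. Treated libraries lay above all untreated ones for 1 member and below them for 8, against 16.8% and 12.2% of all genes. Pold1 fell to 69.3, 75.0 and 49.2 CPM in treated wild-type libraries, against 212, 132 and 137 CPM in untreated wild-type libraries (log2 fold -1.30, SE 0.27, adjusted p = 0.0137). Gmnn fell to 2.20, 3.13 and 5.76 CPM in treated wild-type libraries, against 6.14, 20.9 and 14.6 CPM in untreated wild-type libraries (log2 fold -1.71, SE 0.48, adjusted p = 0.0432). Neither gene overlapped between the groups, though treated library 3 and untreated library 1 of Gmnn lay close. The member that rose was Rrm2, at 10.8, 19.2 and 10.3 CPM in treated wild-type libraries, against 8.50, 3.98 and 3.11 CPM in untreated wild-type libraries (log2 fold 1.35, SE 0.38, adjusted p = 0.0457). Rrm2b, the p53-inducible form of the same reductase subunit, had at most 0.549 CPM in a treated and 0.111 CPM in an untreated wild-type library, too few reads to pass the filter.

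Same-numbered wild-type libraries deviated together, so the fit with the replicate number as a block bears on this response. With the replicate block, whose share of all genes called is not given here, 1 member was called higher and 5 lower. The 3 further ones were Hells at a log2 fold of -1.001 (adjusted p = 0.0167), Rpa2 at -0.51 (adjusted p = 0.0401) and Cdc6 at -0.92 (adjusted p = 0.0481). Hells had 1.74, 1.94 and 1.03 CPM in treated wild-type libraries 1, 2 and 3, against 4.37, 4.35 and 2.33 CPM in untreated wild-type libraries 1, 2 and 3. Cdc6 had 4.39, 1.57 and 22.4 CPM in treated wild-type libraries 1, 2 and 3, against 8.97, 5.61 and 26.6 CPM in untreated wild-type libraries 1, 2 and 3. The treated library was lower in all 3 pairs of both genes, and for Cdc6 library 3 was far above the other 2 in each condition. Without both wild-type libraries numbered 3 there were 0 calls in either direction, and with library size alone 1 higher and 1 lower. The shares of all genes called in the alternative fits are not given here. Rrm2 and Gmnn lost their calls in 14 of 20 alternatives each, and Pold1 lost its call in 1, the fit without both libraries numbered 3. The calls were 0 higher and 1 lower without treated wild-type library 1 or 2, untreated wild-type library 2 or 3, or any p53-/- library, and 1 higher and 5 lower without treated wild-type library 3.

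**Figure D4:**
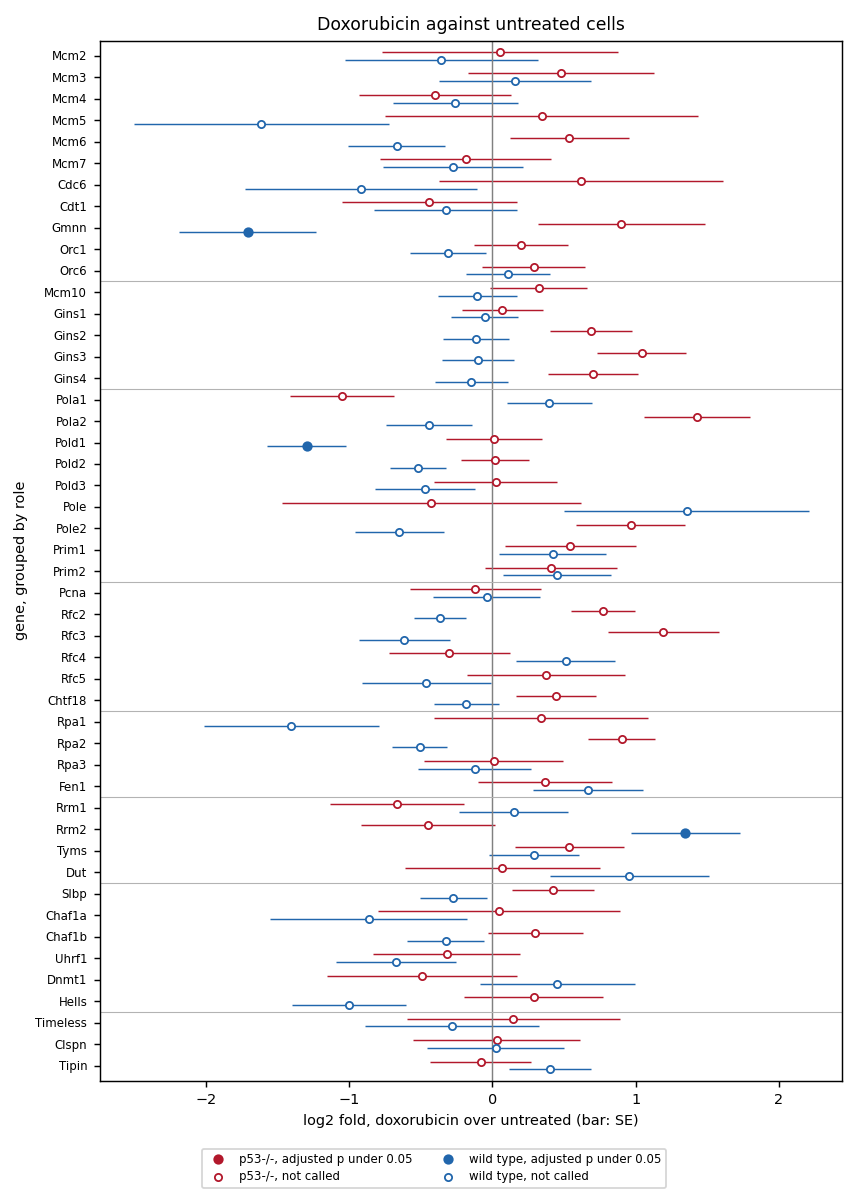
Log2 fold of doxorubicin-treated over untreated cells (horizontal axis) for the 48 tested replication genes (rows, grouped by role), in p53-/- cells (red) and wild-type cells (blue). Bars are 1 SE and filled points are called at an adjusted p under 0.05, which are Gmnn, Pold1 and Rrm2 in wild-type cells, while 36 red points and 15 blue points lie right of 0.

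The responses of the genotypes were set against each other by an interaction term, the p53-/- minus the wild-type log2 fold. Of the members, 1 was called higher and 0 lower, against 0.51% and 1.68% of all tested genes, and 11 stood at an unadjusted p under 0.05, against 2337 of 11177 genes. The median difference was 0.43 for the members and -0.09 for all genes, and 35 of 48 were above 0. The differences ran with level over all genes, with a median of -0.51 below an average log2 CPM of 1 and 0.33 at 5 to 7. Members' medians at these levels were -0.04 and 0.82. In the range of 5 to 7, which holds the called member at 6.88, 1.79% of all genes were called higher. Library size alone moved the median of all genes by -0.12. The called member was Rpa2, with 189 and 148 CPM in treated p53-/- libraries, against 90.5 and 88.1 CPM in untreated p53-/- libraries, and with 112, 86.9 and 90.3 CPM in treated wild-type libraries, against 161, 128 and 123 CPM in untreated wild-type libraries. Treated values were above untreated ones in p53-/- cells and below them in wild-type cells, without overlap in either. Its difference was 1.41 (SE 0.30, adjusted p = 0.0449), made of a log2 fold of 0.90 in p53-/- cells (adjusted p = 0.352) and -0.51 in wild-type cells (adjusted p = 0.118). It lost its call in 14 of 19 alternatives, among them each of the 10 fits that left out 1 library, with differences of 1.28 to 1.63 in those fits. The members next to it did not pass in the main fit. Gmnn was called in 2 of 19 alternatives, the replicate block among them. With the block, 8 members were called higher (Gins3, Gmnn, Pola2, Pold1, Pole2, Rfc2, Rfc3 and Rpa2) and 1 lower (Pola1). In p53-/- cells, though, the libraries share only a number. The shares of all genes above are those of the fit without the block, so these counts have no background beside them. In the main fit, Rfc2 had a difference of 1.14 (adjusted p = 0.0708) and Pola2 of 1.87 (adjusted p = 0.0736). That of Rfc3 was 1.81 (adjusted p = 0.0897) and that of Gmnn 2.61 (adjusted p = 0.0993). Rrm2 and Pola1 ran the other way, at -1.80 (adjusted p = 0.143) and -1.45 (adjusted p = 0.130).

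**Figure D5:**
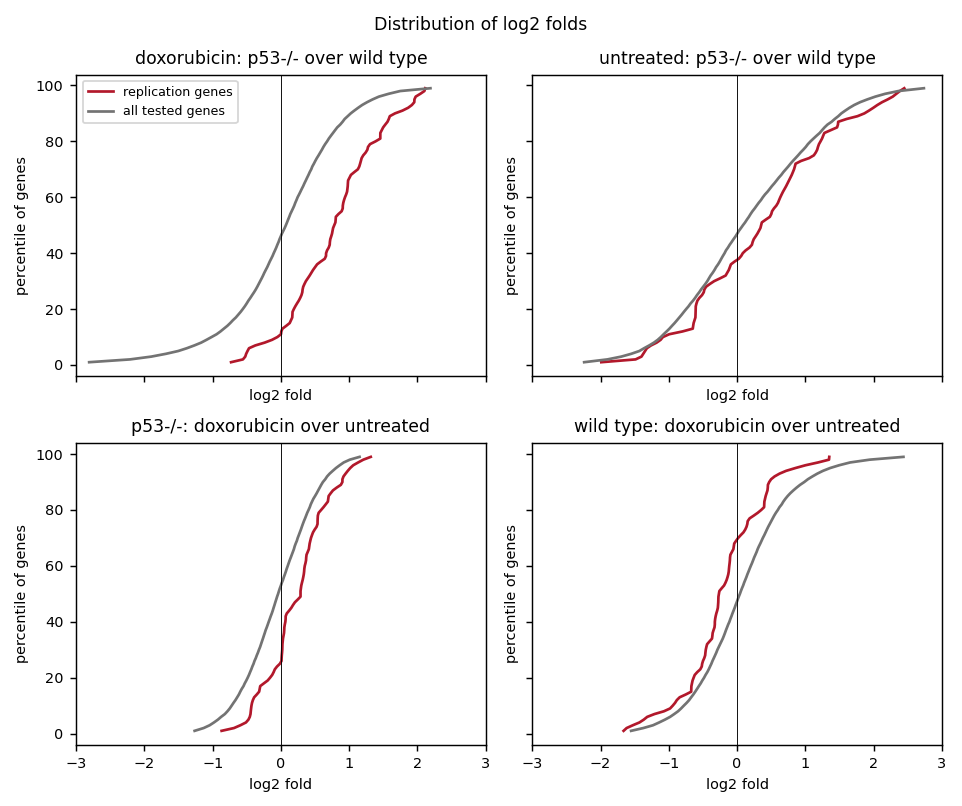
Cumulative percentiles (vertical axis) of the log2 fold (horizontal axis) over the 48 tested replication genes (red) and all 11177 tested genes (grey), for p53-/- over wild type after doxorubicin and without treatment (top) and for doxorubicin over untreated in p53-/- and wild-type cells (bottom). The red curve lies right of the grey one at the median after doxorubicin (0.78 and 0.07) and in p53-/- cells (0.29 and -0.04), and left of it in wild-type cells (-0.27 and 0.04).

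Other genes of DNA replication, a list of 44 of which 41 were tested, gave 8 higher and 1 lower in treated p53-/- against treated wild-type cells, where 5.68% and 6.41% of all tested genes were called. The higher ones were Asf1b, Dtl, Tk1, 1110007A13Rik, 2810417H13Rik, Top2a, Cdca7 and Dbf4. Among them were Top2a, encoding topoisomerase II alpha, with a log2 fold equal to 2.03 (SE 0.29, adjusted p = 0.00152), Cdca7, which recruits Hells to chromatin, at 2.06 (SE 0.43, adjusted p = 0.0121), and Dbf4, the activator of the origin-firing kinase Cdc7, at 1.48 (SE 0.36, adjusted p = 0.0263). The lower one was Pold4, the smallest subunit of polymerase delta, with 70.4 and 64.2 CPM in treated p53-/- libraries, against 145, 265 and 202 CPM in treated wild-type libraries (log2 fold -1.55, SE 0.26, adjusted p = 0.00364). Pold4 thus ran opposite to Pold1, Pold2 and Pold3. Without treatment 9 of the 41 were higher in p53-/- cells (Dbf4, Topbp1, Chtf8, Wdhd1, Pole4, Mcm9, Asf1a, Asf1b and Orc4l) and 5 lower (Pold4, Nasp, Nfkbil2, Tk1 and Rnaseh2c). Over all tested genes these shares were 20.2% and 12.7%, so the list's untreated calls were near the background. In wild-type cells 3 rose and 6 fell with doxorubicin, against 7.86% and 4.61% of all tested genes. Cdca7 fell by 1.96 on the log2 scale (SE 0.38, adjusted p = 0.00967), while Pold4 rose by 0.85 (SE 0.23, adjusted p = 0.0387). In p53-/- cells 0 passed, with 8 at an unadjusted p under 0.05, against 1262 of 11177 genes. Among the 41, the difference of responses was called higher for Tk1 and Nasp, which encode thymidine kinase and a histone chaperone, at 1.76 (SE 0.36) and 1.69 (SE 0.32), and lower for 0. For Nasp, values were 186 and 190.4 CPM in treated p53-/- libraries, against 96.8 and 112 CPM in untreated p53-/- libraries, and 99.4, 139 and 118 CPM in treated wild-type libraries, against 166, 254 and 221 CPM in untreated wild-type libraries.

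Regulators of S phase entry, a list of 17, gave 6 higher and 3 lower in treated p53-/- against treated wild-type cells, and 6 higher and 1 lower without treatment. Of all tested genes, 5.68% were higher and 6.41% lower after doxorubicin, and 20.2% and 12.7% without treatment. Ccne2 and Cdk2, which encode a cyclin E and its kinase, were higher after doxorubicin, at log2 folds of 2.26 (SE 0.64, adjusted p = 0.0480) and 1.11 (SE 0.32, adjusted p = 0.0476). Rb1 and Rbl2, encoding pocket proteins that bind E2F factors, were lower, at -1.35 (SE 0.35, adjusted p = 0.0347) and -1.49 (SE 0.28, adjusted p = 0.00741). Rbl2 had 9.03 and 10.7 CPM in treated p53-/- libraries, against 34.3, 21.6 and 30.9 CPM in treated wild-type libraries, which did not overlap. The other genes called higher after doxorubicin were E2f2, E2f3, E2f8 and Cdkn1b, and the third lower gene was Cdkn1a. In wild-type cells 3 of the 17 rose with doxorubicin and 0 fell, namely Cdkn1a, Rbl2 and Rb1, against 7.86% and 4.61% of all tested genes. Rbl2 stood at 34.3, 21.6 and 30.9 CPM in treated wild-type libraries, against 7.91, 6.79 and 9.12 CPM in untreated wild-type libraries (log2 fold 1.78, SE 0.25, adjusted p = 0.00173). In p53-/- cells 0 passed, with 3 at an unadjusted p under 0.05, against 1262 of 11177 genes. A list of 44 genes of G2 and mitosis, which shares Top2a with the other replication genes, had a median log2 fold of 0.76 in treated p53-/- over treated wild-type cells, close to the 0.78 of the replication genes. Its median response to doxorubicin was -0.39 in p53-/- cells, where that of the replication genes was 0.29, and -0.66 in wild-type cells, where that of the replication genes was -0.27. These values are descriptions, and the difference between the lists was not tested.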

How the data were processed

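RNA was measured in 10 libraries made by a 3′ sequencing protocol, per the labels' protocols. The authors deposited 1 value per gene and library, a score on a variance-stabilised scale with no header, and the submitters' processing notes name DESeq, with no version, and the build mm9. Which aligner, annotation and strand setting were used is not given in the sources used here. In RefSeq GRCm38.p6, 10 of the 49 members overlap another coding gene, whose reads cannot then be told apart. These are Mcm7, Gins2, Orc1, Pold2, Pole2, Rfc4, Rpa1, Fen1, Chaf1a and Chtf18. A single curve, of reads over a factor for each library, tied the deposited scores of the 10 libraries together and gave back whole reads. Beyond the first 267 to 542 reads, used to start the curve, 99.79% of 20476 distinct scores came within 0.01 of a whole read, and the other 44 all stood at 108926 reads or more. These recovered reads are computed, so no count model was used. Scaling used trimmed means of M values, trimming 30% of ratios and 5% of levels, in R 4.3.3. Genes were kept at 1 CPM in at least 2 libraries, and limma 3.58.1 (trend) was run on log2(CPM + 0.5) with a mean for each group over all 10 libraries. Added CPM makes folds of low genes too small. Tests were two-sided, Benjamini-Hochberg adjusted over 11177 genes, threshold 0.05, and the fit was tested on simulated data.

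Over all genes, deviations from the group means correlated at 0.581, 0.341 and 0.611 between same-numbered wild-type libraries, so wild-type numbers were read as pairs. The main fits ignored this pairing, and only the replicate block used it. In p53-/- cells there are 2 pairs (0.384), and Y-linked reads differed within number 2 (15 treated, 216 untreated), so these share only a number. Members, role lists and tests were chosen with earlier results of these data known, and list tests were not run. Named members were those called in any comparison, the 4 largest non-overlapping folds in each comparison and a panel of 17 genes, 31 in all. Alternatives were other scalings, the deposited scores, 2 CPM added, no filter, fewer groups, voom weights, the replicate block and left-out libraries. The p53 binding peaks are not used here, since no annotation of their build was at hand.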

Additional observations from a re-analysis of the deposited data

Results flagged for a closer look

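Rpa2 was singled out because its response to doxorubicin differed between the genotypes by the interaction term in limma, with a p53-/- minus wild-type difference of 1.41 on the log2 scale (SE 0.30, adjusted p = 0.0449). Both treated p53-/- libraries lay above both untreated ones, and the 3 treated wild-type libraries lay below the 3 untreated ones, which describes the difference that singled the gene out and adds no support to it. Over the alternatives, which include the deposited scores on their own scale, the difference was 1.27 to 1.89. Their limma adjusted p was 0.0164 to 0.277, and the call was lost in 14 of 19.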

How the results depend on the processing

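All alternatives planned were run, and the reason for each change was not tested unless stated. Shares of all genes called are given for the main fits alone, so the counts in the alternatives have no background beside them. The doxorubicin response in p53-/- cells kept 0 members called in every alternative. In wild-type cells the 1 member called higher became 0 with 2 CPM added, no filter, only the groups compared, limma-voom weights, without both p53-/- libraries numbered 2, and without both wild-type libraries numbered 3, the last added after seeing the data. The 2 called lower became 1 with library size alone, no filter, only the groups compared, limma-voom weights and without both p53-/- libraries numbered 2, 0 without both wild-type libraries numbered 3, and 5 with the replicate block. For the difference of responses, the 1 higher call became 0 with the deposited values, no filter, without both p53-/- libraries numbered 2 and without both wild-type libraries numbered 3. With the replicate block it had 8 higher (Gins3, Gmnn, Pola2, Pold1, Pole2, Rfc2, Rfc3 and Rpa2) and 1 lower (Pola1). In that block the p53-/- libraries share only a number. In the comparisons between genotypes that follow, the block joins p53-/- and wild-type libraries that share only a number. Between untreated genotypes, the 9 higher calls became 15 with library size alone, with a median of 0.75, and 0 without both p53-/- libraries numbered 2. The 1 lower call became 2 with median-of-ratios scaling, the deposited values, 2 CPM added, limma-voom weights and without both wild-type libraries numbered 3, 3 with the replicate block, 5 with only the groups compared and 0 without both p53-/- libraries numbered 2. Between treated genotypes, the 15 higher calls became 3 with only the groups compared, which leaves 5 libraries, 0 without both p53-/- libraries numbered 2 and 8 without both wild-type libraries numbered 3, and the block gave 16. Leaving out 1 library at a time, where a lone library is assumed to vary like the other groups, gave 0 to 0 calls and a median of 0.15 to 0.38 for doxorubicin in p53-/- cells. It gave 0 to 1 higher, 1 to 5 lower and a median of -0.30 to -0.09 for doxorubicin in wild-type cells. For the difference it gave 0 to 1 higher, 0 to 0 lower and a median of 0.28 to 0.63. Between genotypes it gave 1 to 11 higher, 0 to 4 lower and a median of 0.34 to 0.41 untreated, and 0 to 16 higher, 0 to 0 lower and a median of 0.71 to 0.96 treated. Among single genes, 76 of 83 called results lost their call in some alternative and 7 in none. The response of Pold1 in p53-/- cells, 0.01, was -0.094 with library size alone and -0.3307 to 0.3615 with 1 library left out, below 0 without treated library 1 (-0.33) and without untreated library 2 (-0.21). Members with under 1 CPM rest on few reads, fewest in the shallower wild-type libraries.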
